A study of Mus musculus with 8 samples.

Results

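This account describes the genes that mark the somatostatin, neuropeptide Y and nitric oxide synthase interneurons of the striatum, with related interneuron genes, in R6/2 and wild-type mice. The members were 8 listed genes, namely Sst, Npy, Cort, Vip, Pthlh, Nos1, Th and Lhx6, and every probe set that the platform annotation pairs with them was kept. The annotation pairs 11 probe sets with 7 of these genes, out of 45037 probe sets tested. Pthlh, which encodes parathyroid hormone-like hormone, was listed with no probe set and is unnamed here.

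The tissue RNA came from the striatum of 4 R6/2 mice (numbered 64, 65, 70 and 78) and 4 wild-type mice (42, 48, 54 and 63), with 1 array per mouse. All 8 were female, 85 days (12 weeks) old and of mixed C57Bl/6 and CBA strain, and no drug or other treatment is named. R6/2 mice express the beginning of human huntingtin, with a long CAG repeat, from a transgene under the human promoter, which is active in many cell types. It is used as a fast model of Huntington's disease. The design text names a further wild-type mouse, which was not analysed here.

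Interneurons are a small minority of striatal neurons, and most striatal neurons are medium spiny projection neurons. A class of GABA-releasing interneurons makes somatostatin and neuropeptide Y together with the neuronal nitric oxide synthase, though each need not be confined to it. The relative sparing of this class was described early in the striatum of patients with Huntington's disease. The peptides of this class act on G protein-coupled receptors, while nitric oxide diffuses to neighbouring cells and activates soluble guanylyl cyclase there. Lhx6 directs the formation of these cells and of parvalbumin interneurons from the medial ganglionic eminence. Th, the rate-limiting enzyme of dopamine synthesis, marks a further sparse class of striatal interneurons. Vip marks interneurons that are common in the cortex.

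Sst is a classic target of the transcription factor CREB, which binds the cyclic AMP response element TGACGTCA. The stretch before the annotated start of Sst is shown because several members were lower together. Beside it stand that of Th, which has the same element, those of Npy and Nos1, which were also lower, and that of Vip. Whether these starts are the ones used in the striatum was not tested. The Nos1 stretch ends in a pyrimidine-rich run and ag, like the end of an intron, so it may not be a promoter. The sequences are from RefSeq (GRCm38.p6) and hold the 150 bases before the annotated transcript start, read 5′ to 3′ on the gene's strand. Capitals mark TGACGTCA or its shorter part CGTCA, read on either strand.
Sst, chr16:23890845-23890994, minus strand: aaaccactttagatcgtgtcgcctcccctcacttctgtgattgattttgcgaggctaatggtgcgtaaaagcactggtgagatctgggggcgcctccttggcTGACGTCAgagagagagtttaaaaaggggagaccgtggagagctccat
Th, chr7:142899996-142900145, minus strand: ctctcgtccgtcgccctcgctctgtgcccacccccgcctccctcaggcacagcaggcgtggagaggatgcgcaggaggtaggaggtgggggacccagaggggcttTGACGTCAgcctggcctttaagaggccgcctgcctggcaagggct
Vip, chr10:5639068-5639217, plus strand: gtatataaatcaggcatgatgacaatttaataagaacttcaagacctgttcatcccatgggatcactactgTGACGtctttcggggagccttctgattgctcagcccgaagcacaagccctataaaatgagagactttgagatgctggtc
Nos1, chr5:117866689-117866838, plus strand: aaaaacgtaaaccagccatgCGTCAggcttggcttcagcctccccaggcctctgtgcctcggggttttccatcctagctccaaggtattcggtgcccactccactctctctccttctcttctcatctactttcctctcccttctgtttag
Npy, chr6:49822560-49822709, plus strand: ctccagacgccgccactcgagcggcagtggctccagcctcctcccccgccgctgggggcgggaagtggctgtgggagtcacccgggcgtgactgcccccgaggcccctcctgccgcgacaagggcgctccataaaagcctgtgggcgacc

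The full element began 48 bases before the start of Sst and 45 bases before that of Th. All 8 members had at least 1 RefSeq window (10 windows in all, each 250 bases before to 50 bases after a start). TGACGTCA was present in windows of 2 of the 8 members, against 549 of 27025 mouse genes (1.79% of 32851 windows). CGTCA on either strand, which every full element holds, was present in windows of 5 members, against 6228 of the 27025 genes (20.8% of windows). Beside Sst and Th, CGTCA began 79 bases before the annotated start of Vip, 130 before that of Nos1 and 18 before that of Cort. Over the 422 measured genes with TGACGTCA in a window, 4.74% were called lower and 11.1% higher in R6/2 mice (limma, adjusted p under 0.05), against 4.92% and 7.60% of all 14452 measured genes with a window. Of the 2 members that hold it, Sst was called lower and Th was not, at log2 differences of -0.47 and -0.39. These 2 differences were not told apart when compared directly (0.086, exact permutation adjusted p = 0.754).

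Sst, Npy and Nos1 transcripts were lower in the striatum of R6/2 mice. Npy stood at 60.8% of its wild-type level, Sst at 72.0%, and Nos1 at 70.4% and 62.2% by the brighter of its probe sets. These 4 probe sets were the ones called among the 11, none was called higher, and in each of the 4 all R6/2 mice lay below all wild-type mice. Over all probe sets, 4.59% were called lower and 5.54% higher at an adjusted p under 0.05 (limma, Benjamini-Hochberg), and the R6/2 mice all lay below the wild-type mice in 7.07% and all above them in 9.05%. The median log2 difference was -0.39 over the 11 probe sets and -0.017 over all probe sets, and 10 of the 11 were negative. A score of cortical genes was lower in the R6/2 mice (mean -0.53 against 0). With this score as a covariate, none of the 4 calls passed. The differences were then -0.26 for Sst, -0.52 for Npy and -0.52 and -0.60 for Nos1 (limma adjusted p = 0.323, 0.0582, 0.0514 and 0.0929). Because the score differed with genotype, the covariate may also remove a genotype effect, and the 2 cannot be told apart. In whole tissue, fewer cells of a type and less RNA per cell cannot be told apart.

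**Figure D1:**
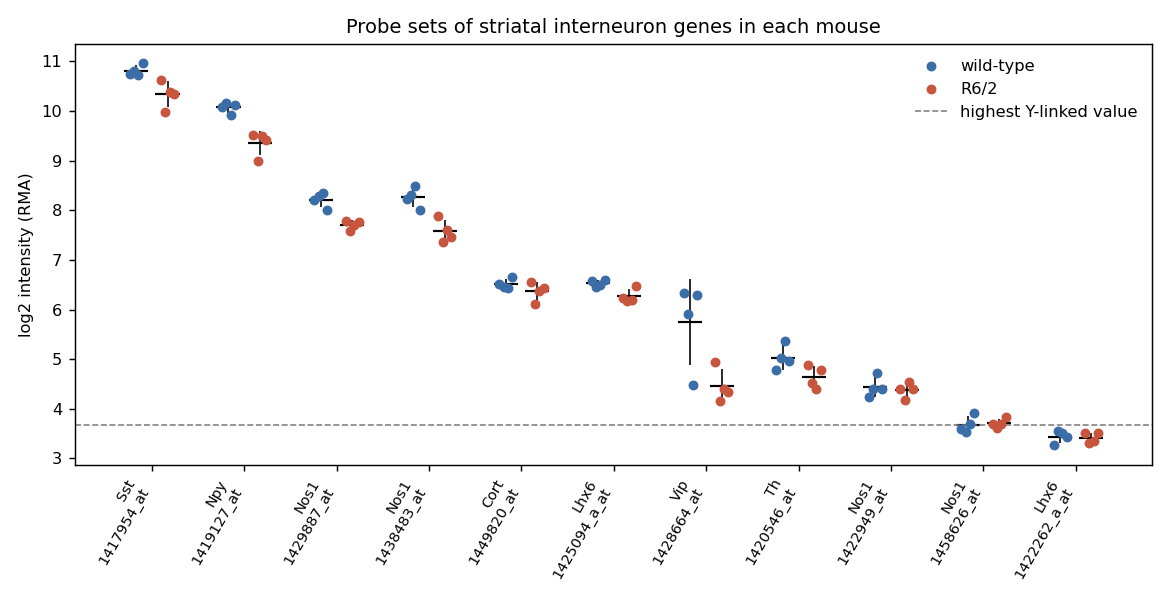
Log2 intensity (vertical axis) of the 11 probe sets of interneuron genes in each mouse, with wild-type mice in blue and R6/2 mice in red (points), group means (horizontal bars) and SD (vertical bars, n = 4 each). The dashed line is the highest value of a Y-linked probe set, 3.67. In Sst, Npy and the 2 brighter Nos1 sets the red points lie below all blue points, while for Vip 1 blue point, mouse 54, lies among the red ones at 4.47. Intensities of different probe sets cannot be compared with each other.

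Sst encodes the precursor of somatostatin, an inhibitory peptide. Its log2 values were 10.75, 10.80, 10.72 and 10.96 in wild-type mice 42, 48, 54 and 63, and 10.62, 9.99, 10.38 and 10.35 in R6/2 mice 64, 65, 70 and 78. The groups did not overlap, but R6/2 mouse 64 lay within 0.1 of wild-type mouse 54, and mouse 65 was the lowest. The log2 difference was -0.47 ± 0.12 (R6/2 minus wild-type, SE, limma adjusted p = 0.0390), a 1.39-fold difference. Leaving out any array but that of R6/2 mouse 64 ended the call, and the highest adjusted p was 0.0883, without wild-type mouse 48. Without mouse 64 the difference was -0.57 (adjusted p = 0.0231), and over the 8 fits without 1 array it ranged from -0.57 to -0.36.

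Npy encodes the precursor of neuropeptide Y. It read 10.08, 10.16, 9.93 and 10.12 in the wild-type mice and 9.51, 8.98, 9.50 and 9.42 in the R6/2 mice, in the same order of mice. Every R6/2 value was below every wild-type value, and again R6/2 mouse 65 was the lowest. Npy fell by 0.72 ± 0.12 (log2, SE, limma adjusted p = 0.00576), and the call held without each array in turn (adjusted p from 0.00671 to 0.0231).

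Nos1 encodes the neuronal nitric oxide synthase and had 4 probe sets. The brightest, 1429887_at, read 8.21, 8.29, 8.35 and 8.01 in the wild-type mice and 7.79, 7.59, 7.70 and 7.76 in the R6/2 mice. The next, 1438483_at, read 8.23, 8.31, 8.48 and 8.01 against 7.89, 7.35, 7.60 and 7.46. In both sets wild-type mouse 54 was the highest and mouse 63 the lowest of its group, and the genotypes did not overlap. Nos1 fell by 0.51 ± 0.090 in the first set and by 0.68 ± 0.13 in the second (log2, SE, limma adjusted p = 0.00752 and 0.0105), and both calls held without each array in turn. The remaining sets were dim. Set 1422949_at, at 4.44 ± 0.20 in wild-type and 4.38 ± 0.16 in R6/2 mice (SD, n = 4 each), differed by -0.057 (95% interval -0.31 to 0.20), and set 1458626_at, at 3.68 and 3.71, close to the highest Y-linked value of 3.67, by 0.028 (-0.18 to 0.24). The level of set 1458626_at leaves little room for a difference to be measured. Set 1422949_at lay above the highest Y-linked value, and why it differed from the brighter sets was not tested.

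Cort encodes cortistatin, a peptide related to somatostatin that binds the same receptors. Its values were 6.52, 6.46, 6.44 and 6.65 in wild-type mice and 6.55, 6.11, 6.37 and 6.44 in R6/2 mice. The groups overlapped, with R6/2 mouse 64 above 3 of the 4 wild-type mice and mouse 65 the lowest. The difference of -0.15 (95% interval -0.37 to 0.073, limma adjusted p = 0.398) did not pass.

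Vip encodes vasoactive intestinal peptide. It read 6.33, 5.91, 4.47 and 6.29 in wild-type mice 42, 48, 54 and 63 and 4.94, 4.16, 4.40 and 4.34 in R6/2 mice 64, 65, 70 and 78. Wild-type mouse 54 lay within the R6/2 range, and the other 3 wild-type mice lay above it. The difference of -1.29 ± 0.36 (log2, SE) had the largest size of the 11 and missed the threshold over all probe sets (limma adjusted p = 0.0508). It passed with 1 probe set per gene (adjusted p = 0.0352) and without wild-type mouse 54 (-1.71, adjusted p = 0.00220).

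Lhx6 encodes a LIM homeobox transcription factor. Its brighter set, 1425094_a_at, read 6.57, 6.45, 6.49 and 6.59 in wild-type mice and 6.23, 6.18, 6.19 and 6.47 in R6/2 mice. Only R6/2 mouse 78 reached the wild-type range. The difference of -0.26 (95% interval -0.44 to -0.072) did not pass (limma adjusted p = 0.0806), except without R6/2 mouse 78 (-0.33, adjusted p = 0.0371). Its other set, 1422262_a_at, had means of 3.44 and 3.42, below the highest Y-linked value, and differed by -0.020.

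Th encodes tyrosine hydroxylase. It read 4.78, 5.01, 5.37 and 4.96 in wild-type mice and 4.88, 4.52, 4.39 and 4.78 in R6/2 mice. Wild-type mouse 42 lay below R6/2 mouse 64, so the groups overlapped. The difference was -0.39 (95% interval -0.70 to -0.072, limma adjusted p = 0.118).

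**Figure D2:**
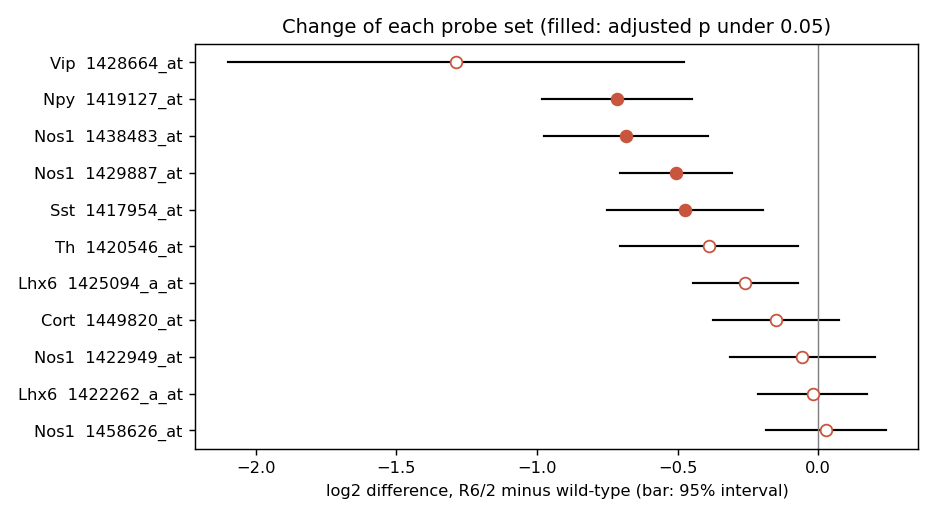
Log2 difference (horizontal axis, R6/2 minus wild-type) of each of the 11 probe sets (vertical axis), with its 95% interval from limma (bars) and filled points where the adjusted p was under 0.05. The filled points are Npy, Sst and 2 Nos1 sets, between -0.72 and -0.47, and the Vip interval, from -2.10 to -0.48, is the widest.

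Whether the genes changed by unequal amounts was tested against Sst, for the brightest set of each of the 6 other measured genes (exact 2-sided permutation test over 70 arrangements, Benjamini-Hochberg over the 6). The log2 value of Npy minus that of Sst was -0.74 ± 0.10 in wild-type and -0.98 ± 0.10 in R6/2 mice (SD, n = 4 each), so that Npy was lower by a further 0.24, with no overlap of the groups (exact p = 0.0286, the smallest possible, adjusted p = 0.0857). The difference of Cort was 0.32 smaller in size than that of Sst, again with no overlap (exact p = 0.0286, adjusted p = 0.0857). Neither passed after adjustment. With only 2 of the 6 genes at the smallest possible p, the adjusted p could not be lower, so it does not show whether they changed unlike Sst. Nos1 differed from Sst by -0.032, Lhx6 by 0.21, Th by 0.086 and Vip by -0.81, and the smallest adjusted p of these 4 (exact permutation) was 0.286.

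The mice did not rank alike in all members. R6/2 mouse 65 was the lowest of its group in Sst, Npy, Cort, Vip, the brighter Nos1 sets and the brighter Lhx6 set, and mouse 64 was the highest in Sst, Npy, Cort, Vip, Th and the brighter Nos1 sets. Among wild-type mice, mouse 54 was the lowest in Sst, Npy, Cort and Vip and the highest in Th and in both brighter Nos1 sets. The genes whose deviations from the group means were most like those of Sst over the 8 arrays, of 11293 candidates, were Nudt19, Acot7 and Nsf (Pearson correlation 0.99, 0.98 and 0.97). For Npy they were Trmt10a, Sub1 and Mfsd2a (0.98, 0.97 and 0.97), and for Nos1 Arid1a, Rgs10 and Cog1 (0.99, 0.98 and 0.98). Correlations this high can be reached by some of so many candidates over 8 arrays. Of these 9 genes Rgs10, a regulator of G protein signalling, was called (-0.47, limma adjusted p = 0.0239).

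Genes of cortical projection neurons varied between the mice in step with some of these ranks. The score of 16 measured cortical genes (mean log2 value minus the wild-type mean) was 0.24, 0.079, -0.47 and 0.16 in wild-type mice 42, 48, 54 and 63, and 0.0020, -0.89, -0.43 and -0.79 in R6/2 mice 64, 65, 70 and 78. Mouse 54, low in Vip, thus had the lowest cortical score of the wild-type mice, and mouse 64, high in Vip and Sst, the highest of the R6/2 mice. The summed log2 level of the list was 11.77 to 12.22 in wild-type mice and 11.59 to 12.09 in R6/2 mice, and 2 of its 16 genes were called lower. Of the 16 genes 13 had negative differences and 9 an unadjusted p under 0.05 (limma). The median over their brightest sets was -0.63, against -0.47 over the brightest set of each measured member. Of its defining genes, Slc17a7, which loads glutamate into synaptic vesicles, had means of 7.85 and 6.11 and Tbr1, a cortical transcription factor, of 4.70 and 4.01.

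With that score added to the limma model, none of the 11 probe sets was called for genotype. The SE was then 0.13 for Npy and for Sst and 0.12 and 0.17 for the brighter Nos1 sets, and the difference of Vip was -0.48 ± 0.27 (limma adjusted p = 0.392). The size for the brightest Nos1 set was as large as without the covariate, while that for Sst and for Vip was smaller by more than 1.5 times. Per unit of cortical score, Vip changed by 1.54 ± 0.33, Sst by 0.41 ± 0.16, Npy by 0.37 ± 0.16 and the brightest Nos1 set by -0.023 ± 0.15 (log2, SE). None of these slopes passed over all probe sets (limma adjusted p from 0.549 to 0.995), and the covariate fit called 863 probe sets lower and 932 higher in R6/2 mice, against 2069 and 2497 without it.

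**Figure D3:**
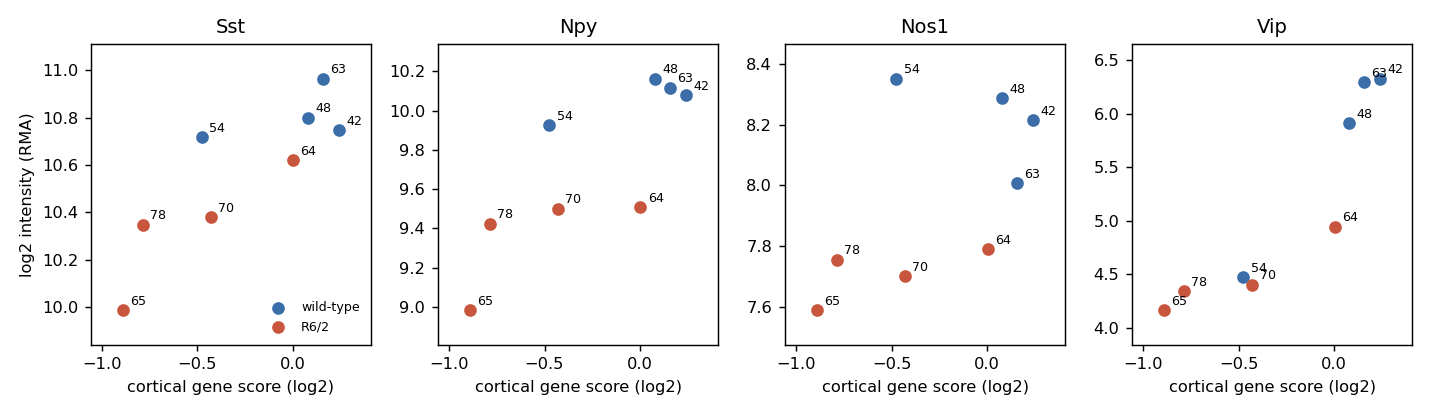
Log2 intensity (vertical axes) of Sst, Npy, the brightest Nos1 set and Vip against the cortical gene score of each array (horizontal axes, log2), with wild-type mice in blue and R6/2 mice in red, labelled by mouse number. Vip is low in wild-type mouse 54 (4.47 at a score of -0.47), while Sst, Npy and Nos1 of that mouse stay above all R6/2 mice.

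Other tissue markers were checked likewise. The score of ependyma and choroid plexus genes was -0.44 to 0.57 in wild-type mice and -0.50 to 0.95 in R6/2 mice (1 of 10 genes called lower and 1 higher, summed log2 level 12.29 to 14.26 and 12.42 to 14.32), and their part in the results was not tested. Markers of midbrain dopamine neurons, which also express Th, lay between -0.051 and 0.047 in wild-type and between -0.065 and 0.025 in R6/2 mice, with none of 10 called (limma, none at an adjusted p under 0.05 and 1, Slc18a2, at an unadjusted p under 0.05). Their defining genes Slc6a3, the dopamine transporter, and Slc18a2, the vesicular monoamine transporter, were dim, with means of 4.18 and 4.00 and of 3.87 and 4.43. Markers of hypothalamic peptide neurons gave overlapping scores (-0.074 to 0.12 and -0.081 to 0.089), with Avp at 4.30 and 4.27 and Oxt at 7.36 and 7.33. The striatal label was borne out by medium spiny neuron genes such as Ppp1r1b (DARPP-32), at 12.17 in wild-type and 11.25 in R6/2 mice, and Drd1 at 11.65 and 10.86. Of that list 9 of 10 genes were called lower, with a median log2 difference of -0.97. Its score was -0.23 to 0.13 in wild-type mice and -1.08 to -1.01 in R6/2 mice.

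Among receptors of the peptides, 2 of 13 measured genes were called lower and none higher, with a median of -0.12. In these lists each gene was read by its brightest probe set, and over all 18193 genes 5.13% were called lower and 7.29% higher, and in 7.67% the R6/2 mice all lay below the wild-type mice. Both that fell are somatostatin receptors. Sstr2 lay between 6.95 and 7.17 in wild-type mice and between 5.72 and 6.64 in R6/2 mice, with no overlap (-0.83 ± 0.17, log2, SE, limma adjusted p = 0.0144), and its call held without each array. Sstr4 fell by 0.66 ± 0.17 (adjusted p = 0.0390), to 7.34 ± 0.36 in R6/2 mice (SD, n = 4). Leaving out any of 5 arrays ended the Sstr4 call (highest adjusted p = 0.102, without R6/2 mouse 78), and its other, dim set differed by -0.051. Of the 13 receptors 9 had negative differences, and all 5 with an unadjusted p under 0.05 were among them. Beside Sstr2 and Sstr4 these were Sstr5 (-0.44), Sstr1 (-0.28) and Vipr1 (-0.41), which were not called (limma adjusted p = 0.170, 0.155 and 0.173). The 4 positive differences ran from 0.015 for Pth1r, the receptor of the Pthlh product, to 0.24 for Npy5r. When the cortical score was a covariate, neither Sstr2 (-0.48, adjusted p = 0.107) nor Sstr4 (-0.35, adjusted p = 0.323) was called.

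In the nitric oxide pathway, 4 of 12 measured genes were called lower and none higher, Nos1 among them, with a median of -0.23. By their brightest sets all 12 differences were negative, and 6 had an unadjusted p under 0.05 (limma). Prkg2, a cyclic GMP-dependent protein kinase, fell by 0.69 ± 0.092 (log2, SE, limma adjusted p = 0.00212), and a further set of it by 0.67. Arg2, an arginase that competes with the synthase for arginine, fell by 1.33 ± 0.18 (adjusted p = 0.00239), from 6.59 ± 0.39 to 5.27 ± 0.22 (SD, n = 4 each). The calls of Prkg2 and Arg2 held without each array. Ddah1, which degrades an inhibitor of the synthase and was picked out after seeing its values, fell by 0.33 in its brightest set (adjusted p = 0.0431). Leaving out any of 7 arrays ended that call, and the highest adjusted p was 0.109, without R6/2 mouse 78. In the fit with the cortical covariate Prkg2 (-0.79, adjusted p = 0.0109) and Arg2 (-1.33, adjusted p = 0.0255) were still called, while Ddah1 was not (-0.21, adjusted p = 0.322). The subunits of the nitric oxide receptor, soluble guanylyl cyclase, were not called: Gucy1a1 differed by -0.34 (adjusted p = 0.151) and Gucy1b1 by -0.16 (adjusted p = 0.394), and its other set by 0.33 (adjusted p = 0.123).

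Beside Th, 1 of 10 measured genes of dopamine synthesis and handling was called lower and 1 higher. Spr, sepiapterin reductase, which makes the cofactor of tyrosine hydroxylase, rose by 0.40 ± 0.087 (log2, SE, limma adjusted p = 0.0186), from 7.04 ± 0.080 to 7.44 ± 0.14 (SD, n = 4 each). Leaving out any of 4 arrays ended its call (highest adjusted p = 0.0594, without R6/2 mouse 70), as did the cortical covariate (0.47, adjusted p = 0.0522). Dbh, dopamine beta-hydroxylase, was called lower by a set whose ID ends in _x_at (-0.36, adjusted p = 0.0260) and which may bind other transcripts. Its remaining sets differed by -0.26 and 0.0013 and were not called, and leaving out any of 5 arrays ended the call (highest adjusted p = 0.0741, without R6/2 mouse 70). The cortical covariate ended it too (-0.36, adjusted p = 0.127). Ddc, the enzyme after Th in the pathway, was at 5.47 ± 0.44 in wild-type and 6.07 ± 0.24 in R6/2 mice (difference 0.61, adjusted p = 0.0875).

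None of 16 measured transcription factors of the ganglionic eminence and of interneurons was called by limma. Of the 16 differences 10 were negative and 6 positive. The 4 genes with an unadjusted p under 0.05 (limma), Lhx6 and Nkx2-1 among them, were all lower in R6/2 mice. The list includes Lhx6, and its median was -0.048. Satb1, a chromatin regulator needed by somatostatin interneurons, differed by 0.12 ± 0.18 (adjusted p = 0.726), and Nkx2-1, which acts upstream of Lhx6, by -0.25 (adjusted p = 0.163) at means of 4.39 and 4.14. Of 10 other genes enriched in somatostatin and neuropeptide Y interneurons, 1 was called lower and none higher, with a median of -0.062. It was Crhbp, the binding protein of corticotropin-releasing hormone, which went from 5.18 ± 0.48 to 4.25 ± 0.41 (SD, n = 4 each, limma adjusted p = 0.0407). Leaving out any of 6 arrays ended that call (highest adjusted p = 0.105, without R6/2 mouse 65), as did the cortical covariate (-0.43, adjusted p = 0.329). Nxph1, a neurexin ligand that was picked out after seeing its values, was not called by its brightest set (-0.18), while a set of nearly the same brightness fell by 0.64 (limma adjusted p = 0.0110). Chodl differed by -0.060, at means of 4.21 and 4.15.

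Of 17 measured genes of other interneuron classes, 3 were called lower and none higher, with a median of -0.24. Of the 17 genes 15 had negative differences and 8 an unadjusted p under 0.05 (limma). In 5 all R6/2 mice lay below all wild-type mice, against 7.67% of all genes. Crh, corticotropin-releasing hormone, was at least 1.60-fold lower, since its R6/2 mean of 3.31 was below the highest Y-linked value, against 4.36 in wild-type mice (limma adjusted p = 0.0327). Tac2, the neurokinin B precursor, was 1.58-fold lower (adjusted p = 0.0343) and Cox6a2, a cytochrome oxidase subunit, 1.28-fold lower (adjusted p = 0.0336). A dimmer Cox6a2 set, whose ID ends in _x_at, was also called lower (-0.44, limma adjusted p = 0.0148), and the fits that follow read the brightest set. Leaving out any of 6 arrays ended the call of Crh (highest adjusted p = 0.0925, without R6/2 mouse 70), any of 5 that of Tac2 (0.0935, without R6/2 mouse 70) and any of 7 that of Cox6a2 (0.0858, without R6/2 mouse 78), and none of the 3 was called with the cortical covariate. The difference of Crh was then -1.21 against -1.04 without it (limma adjusted p = 0.0888), that of Tac2 -0.46 against -0.66 (0.265) and that of Cox6a2 -0.26 against -0.35 (0.250). Pvalb, the calcium buffer of the parvalbumin class, had means of 8.13 ± 1.11 and 7.91 ± 0.45 (SD, n = 4 each, adjusted p = 0.817). Chat, of cholinergic interneurons, was dim, at 4.29 and 4.10, and was not called (adjusted p = 0.165), though the groups did not overlap.

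Of 4 measured genes shared by GABA neurons of the striatum, none was called by limma or at an unadjusted p under 0.05, and the median was 0.064. Gad1, which makes GABA, differed by -0.15 ± 0.086 (log2, SE, adjusted p = 0.314), and a further set of it by 0.19 (adjusted p = 0.349).

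**Figure D4:**
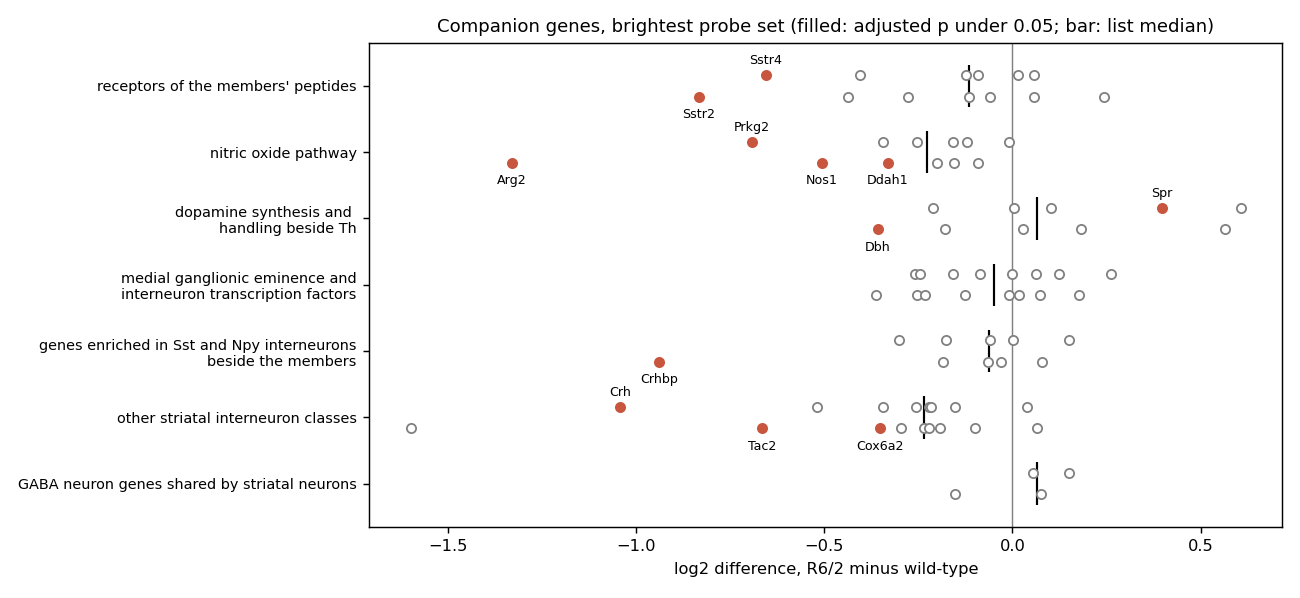
Log2 difference (horizontal axis, R6/2 minus wild-type) of the brightest probe set of each gene in 7 lists of companion genes (vertical axis), with filled points where the limma adjusted p was under 0.05 and a black bar at each list's median. The called genes are lower in R6/2 mice, led by Arg2 at -1.33, except Spr at 0.40.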

How the data were processed

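The authors deposited log2 intensities of Affymetrix probe sets, and the submitters' processing notes name RMA and affy, without versions. Biotin-labelled RNA was hybridised per the labels' protocols. RMA compresses differences near background. Array medians were 5.08 to 5.13, correlations between arrays 0.983 to 0.994, and the number of arrays limits precision. Control probe sets (64) were left out. Probe sets were named by the platform annotation (34945 probe sets with 1 symbol, 932 with several, which were not named), matched by Entrez ID to RefSeq. RefSeq sequences carry their own build, and none is named for the values.

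All 45037 probe sets were fitted in R 4.3.3 with limma 3.58.1 (lmFit, eBayes) on the 8 arrays and adjusted by Benjamini-Hochberg, and called at 0.05. The labels number each mouse, and p-values measure the spread between mice. The procedure was tested on simulated data. A fold is given as a minimum where the lower mean was at or below the highest of 9 Y-linked probe sets (3.67).

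The members, lists, tests and alternatives were chosen with earlier results of these data known. Named companions are, per list, up to 3 called genes taken by smallest adjusted p, or else the brightest, with the defining markers and the 3 genes most like Sst, Npy and Nos1; other companion genes were named after their values were seen. Alternatives covered normalization, filters, probe set summaries, moderation, array weights, a cortical score and each array left out. Figures were drawn with matplotlib 3.10.9.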

Additional observations from a re-analysis of the deposited data

Results flagged for a closer look

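A stray value was looked for in 112 groups of 4 mice, over all member probe sets and the brightest set of each other gene named and of some further marker genes. In 13 of them 1 mouse lay far from the other 3 (a gap to the nearest mouse above Dixon's 95% critical share of the range), where chance flags about 1 in 20.

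In Npy, R6/2 mouse 65 read 8.98 against 9.42 to 9.51 in the others, and in the brighter Lhx6 set R6/2 mouse 78 read 6.47 against 6.18 to 6.23. In Spr, R6/2 mouse 65 read 7.23 against 7.48 to 7.53, and in Cox6a2 R6/2 mouse 78 read 6.78 against 6.99 to 7.02. In Sstr1, R6/2 mouse 65 read 3.41 against 3.76 to 3.83. In Sstr5 wild-type mouse 42 read 5.55 against 4.72 to 4.78, and in Nxph1 wild-type mouse 63 read 7.0003 against 6.23 to 6.27. In Slc17a7, wild-type mouse 54 read 5.80 against 8.36 to 8.66, and in Ttr, a choroid plexus gene, R6/2 mouse 64 read 12.26 against 14.10 to 14.16.

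The remaining 4 groups belong to the genes picked for deviating like Npy, so they share its low mouse by that choice. R6/2 mouse 65 read 5.84 in Trmt10a against 6.47 to 6.57, 11.10 in Sub1 against 11.16 to 11.17 and 6.70 in Mfsd2a against 6.99 to 7.05. In Sub1 wild-type mouse 54, the lowest wild-type mouse in Npy, read 11.15 against 11.17 in the others.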

How the results depend on the processing

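No paired analysis was possible because the groups share no mouse numbers. With the cortical score as a covariate, the member probe sets called lower numbered 0 in place of 4, with -0.26 for Sst, -0.52 for Npy and -0.52 and -0.60 for Nos1, the companion genes called lower 2 in place of 10 and higher 0 in place of 1, and all probe sets 863 lower and 932 higher. The covariate fit has 1 residual degree of freedom fewer. Vip was called, at -1.29, without the dimmest 40% of probe sets, with the brightest set or the mean of the sets of each gene, and without sets ending in _s_at or _x_at, and at -1.16 with array weights. With 1 set per gene 1127 were lower and 1654 higher, and with gene means 1088 and 1587, out of fewer features. Companion genes called higher numbered 2 with gene means and with array weights. After quantile normalization the dim Lhx6 set read 0.021, of opposite sign, and the cause was not tested. With gene means Gad1 read 0.020, the mean of its sets at -0.15 and 0.19.

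Without 1 array, the member sets called lower numbered 3 to 4, companion genes called lower 3 to 8 and higher 0 to 2, and all probe sets 1358 to 2084 lower and 1287 to 2372 higher. The log2 differences ranged from -0.57 to -0.36 for Sst, -0.77 to -0.59 for Npy, -0.57 to -0.46 and -0.79 to -0.61 for the brighter Nos1 sets, -0.13 to 0.036 and -0.022 to 0.10 for the dim ones, -0.21 to -0.065 for Cort, -1.71 to -1.10 for Vip, -0.33 to -0.23 and -0.078 to 0.019 for Lhx6 and -0.47 to -0.27 for Th. The change of Nos1 minus that of Sst ranged from -0.15 to 0.043. With 4 mice against 3, the smallest adjusted p of any member against Sst was 0.0571 (exact permutation). With so few arrangements, a pass would have needed most of the compared genes at the smallest possible p. Signal near background limits the Nos1 set 1458626_at and the dim Lhx6 set.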
